A study of Homo sapiens with 15 samples.

Results

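The promoters of KLK1, KLK15, KLK3, KLK2 and KLK4, 5 neighbouring kallikrein genes on chromosome 19, were followed through the chromatin loops that reach them in LNCaP cells, an androgen-sensitive line from a human prostate cancer metastasis. A loop here is a pair of 1 kb anchors, each the centre of a 5 kb bin, and a gene received a loop when one of the anchors came within 2.5 kb of its canonical transcription start. This gave 73 of the 505995 different loops, 3 for KLK1, 22 for KLK15, 13 for KLK3, 7 for KLK2 and 32 for KLK4, of which 4 join a pair of these promoters and were counted for both. The cells had been kept for 3 days in medium with charcoal-stripped serum and were taken with the ethanol vehicle (0 m) or after 30 m, 4 h, 16 h and 72 h with 10 nM of the androgen dihydrotestosterone (DHT). HiChIP, which joins proximity ligation to chromatin immunoprecipitation, was done against H3K27ac, an acetylation of active enhancers and promoters (10 samples, 2 per time point), and H3K4me3, a trimethylation of active promoters (5 samples, 1 per time point). All groups come from this single line, and none is untreated in full serum.

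For every loop a single contact frequency is deposited per mark and time point, on a scale that the authors set within each mark. Levels are therefore compared within a mark only. With no replicate values no test was possible, and each value or log2 change is given with a 95% interval from its read pairs that covers counting error only, not the spread between cultures. "Rose" and "fell" are used where that interval lies on one side of no change. The 5 promoters together had 926 to 2995 read pairs in the H3K27ac tables and 633 to 3292 in the H3K4me3 tables, of 2475168 to 4308555 and 2153262 to 10675614 over all loops. A HiChIP contact depends on both the proximity of the anchors and the amount of the mark on them, and these cannot be told apart here.

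Kallikreins are secreted serine proteases encoded side by side in 1 cluster. KLK3 encodes prostate-specific antigen, KLK2 its close relative hK2, which activates the KLK3 proenzyme, and KLK4 is another prostate kallikrein. KLK1 encodes tissue kallikrein, which releases kinins, and KLK15 is a less studied member. The androgen receptor binds, as a dimer, a pair of half-sites in DNA called the androgen response element, and KLK3 and KLK2 are classical targets with such elements near their promoters and in enhancers.

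The study designed CRISPR interference guides against androgen receptor binding sites (ARBS) of the locus, and matching of these guides to GRCh37 (hg19, the build of the files) placed 4 sites. ARBS1 lies at chr19:51345493-51345586 and ARBS2 at chr19:51354072-51354208, in an intron and overlapping an exon, respectively, of the long non-coding RNA gene ENSG00000267968. ARBS3 lies at chr19:51372827-51372944, in an intron of a long KLK2 transcript, and ARBS5 at chr19:51393046-51393194, in an intron of KLKP1. Relative to the KLK3 start (chr19:51358171, plus strand) their centres lie at −12.6, −4.03, 14.7 and 34.9 kb, negative values being upstream, and ARBS3 lies at −3.81 kb from the KLK2 start (chr19:51376695, plus strand). Each of the 16 guides to these sites matched chromosome 19 once, next to an NGG motif.

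The nearest upstream site of KLK3 and that of KLK2 are similar in sequence, as are the promoters themselves, and both pairs are shown because the strongest H3K27ac loops of KLK3 and KLK2 join them. Capitals mark the 15 bases closest to the palindromic response element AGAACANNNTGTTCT.
ARBS2, chr19:51354040-51354239, plus strand: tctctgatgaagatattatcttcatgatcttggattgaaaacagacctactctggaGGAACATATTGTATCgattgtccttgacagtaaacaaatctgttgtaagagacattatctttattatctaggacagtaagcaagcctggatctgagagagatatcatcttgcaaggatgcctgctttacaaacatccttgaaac
ARBS3, chr19:51372817-51373016, plus strand: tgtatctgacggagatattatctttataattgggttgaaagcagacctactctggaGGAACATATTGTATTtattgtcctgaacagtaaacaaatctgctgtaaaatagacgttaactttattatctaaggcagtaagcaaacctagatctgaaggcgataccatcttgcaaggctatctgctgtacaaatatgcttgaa
KLK3 promoter, chr19:51357971-51358170, plus strand: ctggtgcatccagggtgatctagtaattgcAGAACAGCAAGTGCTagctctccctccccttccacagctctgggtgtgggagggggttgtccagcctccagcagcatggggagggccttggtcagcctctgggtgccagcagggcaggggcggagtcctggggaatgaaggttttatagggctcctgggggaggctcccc
KLK2 promoter, chr19:51376495-51376694, plus strand: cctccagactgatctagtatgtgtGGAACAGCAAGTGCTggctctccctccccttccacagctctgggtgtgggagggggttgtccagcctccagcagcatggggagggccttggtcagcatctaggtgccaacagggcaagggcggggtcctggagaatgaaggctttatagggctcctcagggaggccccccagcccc

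ARBS2 and ARBS3 were identical at 167 of 204 aligned positions (81.9%), against 49.8% to 52.8% for every other pair of the 4 sites. The marked stretches of ARBS2 and ARBS3 differ by C15T, counted from the first capital with the ARBS2 base first, and have 4 and 3 differences from the 12 fixed letters of the element. The KLK3 and KLK2 promoters were identical at 177 of 206 aligned positions (85.9%), and their marked stretches have 2 and 3 differences. The KLK3 promoter shared 72.8% with that of KLK1, 53.4% with that of KLK4 and 49.6% with that of KLK15, and in none of these 3 did any stretch of the 200 bases come within 3 differences. For scale, 4.77% of the 19874 protein-coding promoters hold a stretch within 3 differences in their 200 upstream bases, and so do 12.6% of the central 200 bases of 192997 anchors without a protein-coding promoter. Within 4 differences, as at ARBS2, these shares are 26.0% and 57.4%. The pattern equals its own reverse complement, so that a single search covers both strands. ARBS1 and ARBS5 each hold a stretch with 3 differences. The forkhead motif TGTTTAC, searched on both strands, was found in the windows of ARBS2 and ARBS3 and not in those of ARBS1, ARBS5 or the 5 promoters, against 3.07% of these anchors and 1.57% of all promoters. The likeness extends to the guides.
ARBS2 guide: gattgaaaacagacctactc
ARBS3 guide: ggttgaaagcagacctactc
These 2 guides of 20 bases differ by A2G and A9G, counted from the 5′ end with the ARBS2 base first, and each had its exact match on chromosome 19 only at its own site.

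KLK3 and KLK2 had strong H3K27ac contact per loop over fewer loops than the median promoter. Averaged over the 5 time points, the H3K27ac contact per loop was 13.6 at KLK3 and 12.9 at KLK2, against a median of 0.973 over the 16266 promoters with a loop, and both exceeded 99.3% or more of them. A promoter had a median of 20 loops, with quartiles of 6 and 38, between which the counts of KLK3 and KLK2 lay. KLK15 with 4.09 and KLK4 with 2.85 stood above 95.9% and 91.4% of promoters, and KLK1 with 2.09 above 83.6%. In H3K4me3 the contact per loop was again highest at KLK3, with 5.63, above 96.2% of promoters, followed by 3.99 at KLK4, 2.52 at KLK2, 2.43 at KLK15 and 2.14 at KLK1. Summed over loops, the mean H3K4me3 contact was 127.6 at KLK4, 73.2 at KLK3, 53.6 at KLK15, 17.6 at KLK2 and 6.41 at KLK1. KLK2 was thus below the median promoter sum of 38.0 in H3K4me3, while its H3K27ac sum of 90.3 was above that of 91.5% of promoters.

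**Figure D1:**
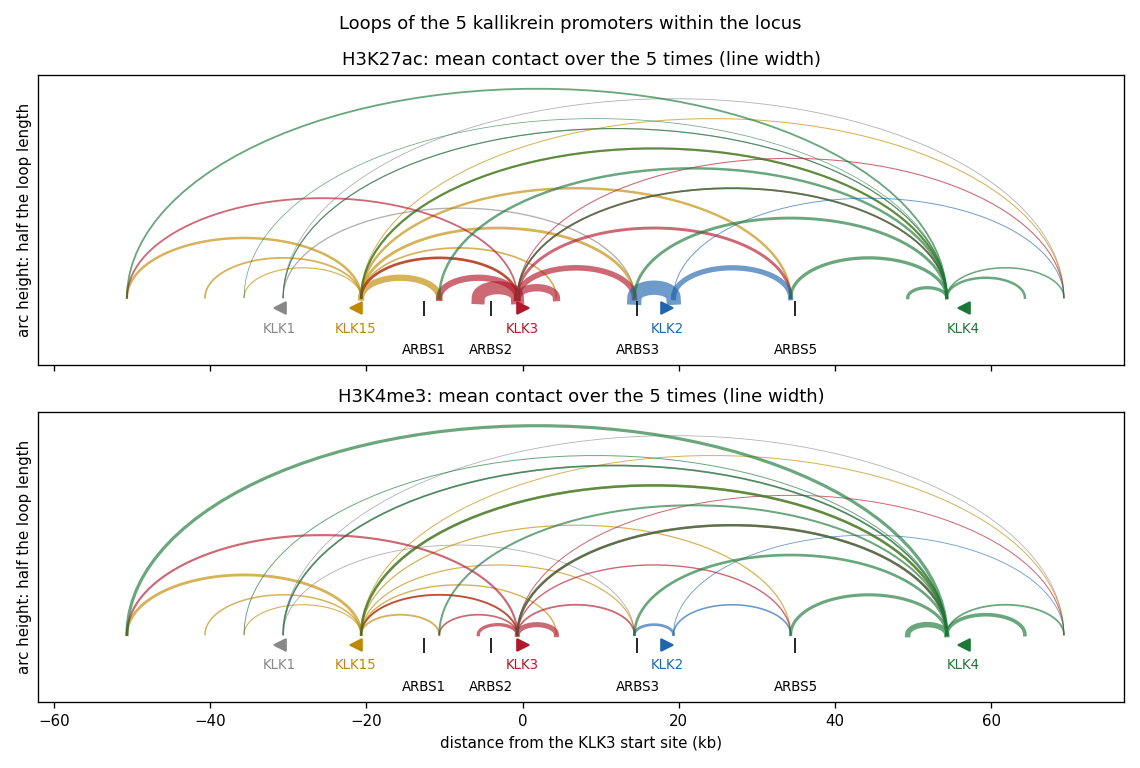
Loops of the 5 promoters that lie within 60 kb upstream to 75 kb downstream of the KLK3 start, drawn as arcs at their distance from it in kb. Line width is the mean contact over the 5 time points, arrowheads are gene starts in the direction of transcription and ticks are the guide sites. The widest H3K27ac arcs join KLK2 with ARBS3 and KLK3 with ARBS2.

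The strongest loops lay inside the cluster, where a loop was taken to reach a site when the site lay in the 5 kb bin around its anchor. The strongest H3K27ac loop of KLK2 joined it to ARBS3 at 5 kb, with a mean contact of 65.6, and that of KLK3 joined it to ARBS2 at 5 kb, with 59.9. In vehicle, the ARBS3 loop held 165 of the 223 H3K27ac read pairs of KLK2, or 74.0% (exact binomial interval 67.7% to 79.6%), whereas the ARBS2 loop held 21.4% (17.8% to 25.3%) of the 486 of KLK3. KLK15 was joined most strongly to ARBS1 at 10 kb, with a mean of 26.8, KLK4 to ARBS5 at 20 kb, with 12.6, and KLK1 to ARBS3 at 45 kb, with 3.24. ARBS3 thus had a listed loop to all 5 promoters, ARBS5 to all but KLK1, ARBS1 to KLK15, KLK3 and KLK4, and ARBS2 to KLK3 alone. The 4 loops between promoters joined KLK15 with KLK3, KLK15 with KLK4, KLK3 with KLK4 and KLK1 with KLK4. No listed loop joined KLK2 with another of the 5 promoters.

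The strongest H3K4me3 loops were others in 4 of 5 cases. KLK3 had its highest mean, 21.4, with a bin in the 3′ part of its own gene (anchor chr19:51362001-51363000). KLK15 had it with the pseudogene C19orf48P at 30 kb (10.4) and KLK1 with the KLK4 promoter (4.71). KLK4 had it with an intergenic 1 kb anchor, whose bin lies 5 kb downstream of the promoter bin (23.2). KLK2 kept ARBS3 in first place, with 10.1. All 4 KLK3 loops over 100 kb, 3 of them to the promoters of CLEC11A, POLD1 and CTU1, had a mean contact below 1 in both marks. KLK4 had stronger ones, with a mean H3K4me3 contact of 11.96 with C19orf48P at 105 kb and 2.38 with the CLEC11A promoter at 185 kb.

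**Figure D2:**
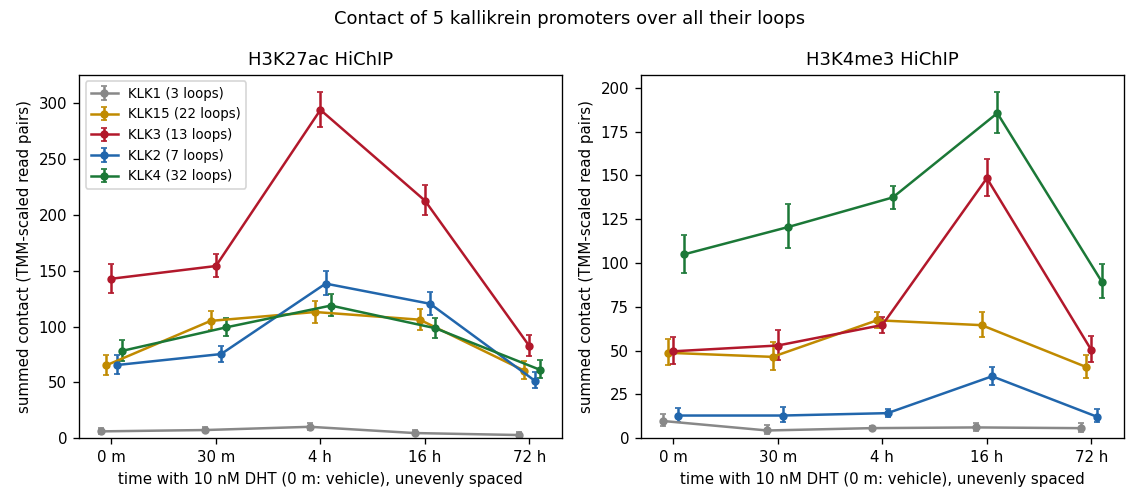
Summed contact of each promoter over all its loops by time with DHT, for H3K27ac (left) and H3K4me3 (right), on scales that cannot be compared between marks. Points are the single value per time point and bars are 95% counting intervals. KLK3 and KLK2 are highest at 4 h in H3K27ac and at 16 h in H3K4me3.

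H3K27ac contact of KLK3 and KLK2 was 2.06-fold and 2.11-fold the vehicle level after 4 h of DHT and was below vehicle at 72 h. From 0 m to 72 h in order of time, KLK3 had a summed contact of 142.8, 154.2, 294, 212.7 and 82.4. Against vehicle this was a log2 change of 0.11 (−0.052 to 0.27) at 30 m, 1.04 (0.89 to 1.19) at 4 h, 0.57 (0.42 to 0.73) at 16 h and, for the last time point, −0.79 (−1.004 to −0.59). KLK2 had 65.5, 75.4, 138.5, 120.4 and 51.6, with log2 changes of 0.20 (−0.035 to 0.44), 1.08 (0.86 to 1.31), 0.88 (0.65 to 1.11) and −0.35 (−0.63 to −0.062). Both genes were thus highest at 4 h and lowest at 72 h. At 72 h KLK3 had fallen further than KLK2, by a log2 difference of −0.45 (−0.80 to −0.093), in which the scaling cancels.

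Few promoters changed as much at 4 h. Of 10029 promoters with at least 100 read pairs in the 0 m and 4 h tables, 7 (0.0698%) had at least doubled and none had halved, and KLK2 and KLK3 were the third and the seventh of them by size. With libraries scaled to equal totals KLK3 was at 0.97, under 2-fold. PKP1 and RINT1, named after their values were seen, were above KLK2. The median promoter changed by a log2 of 0.040. KLK15 and KLK4 also rose, by 0.79 (0.56 to 1.03) and 0.60 (0.39 to 0.82), and 33 and 180 promoters exceeded them. KLK1, with 21 read pairs at 0 m and 48 at 4 h, had 0.73 (−0.035 to 1.55).

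At 16 h the same promoters were no longer far from the rest. The median promoter had then risen by 0.20, 439 of 9861 promoters (4.45%) had at least doubled, and none of the 4 members with enough read pairs had. KLK2, KLK15, KLK3 and KLK4, with 0.88, 0.70 (0.47 to 0.94), 0.57 and 0.33 (0.11 to 0.56), were exceeded by 699, 1283, 2036 and 3783 promoters. The KLK4 interval held 0 with equal totals, at 0.087 (−0.13 to 0.31), and without its strongest loop, at 0.22 (−0.016 to 0.46). At 72 h the median promoter stood at 0.21 while KLK3 was lower than nearly all, with a larger value at 9439 of 9567 promoters. None of the 4 members had halved, as had 40 promoters (0.418%), or doubled, as had 3.66%. KLK2 and KLK4, at −0.35 and −0.35 (−0.61 to −0.091), were exceeded by 8559 and 8579, and KLK15 was at −0.11 (−0.38 to 0.16).

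**Figure D3:**
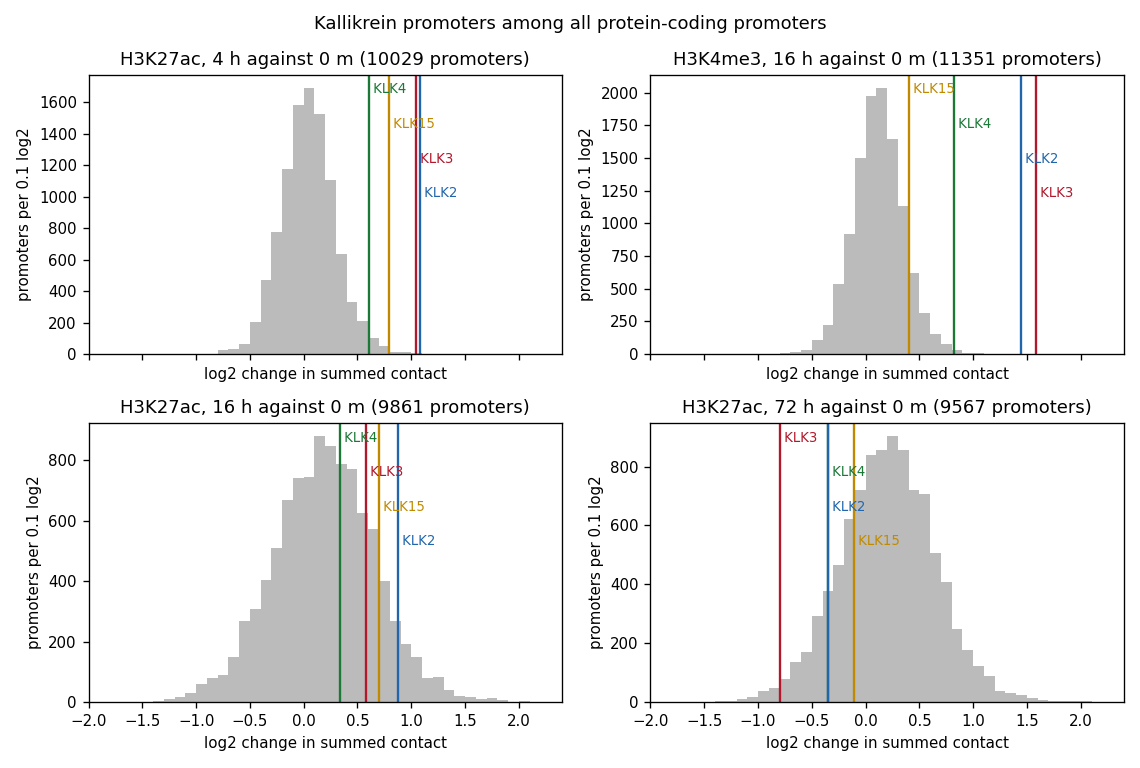
Log2 change in summed contact from 0 m for all protein-coding promoters with at least 100 read pairs over the tables compared (grey bars, promoters per 0.1 log2), with coloured lines at the members that passed this minimum. KLK3 and KLK2 lie at the right edge in H3K27ac at 4 h and in H3K4me3 at 16 h, inside the distribution in H3K27ac at 16 h, and KLK3 lies at its left side at 72 h.

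H3K4me3 contact of KLK3, KLK2 and KLK4 was highest at 16 h. For KLK15 the values at 4 h and 16 h could not be told apart, with a change between them of −0.061 (−0.25 to 0.12). KLK3 had 49.6, 52.9, 64.7, 148.5 and 50.3 from 0 m to 72 h, so that only the 16 h value stood well apart. Its log2 change was 0.38 (0.14 to 0.62) at 4 h, 1.58 (1.34 to 1.83) at 16 h and 0.019 (−0.29 to 0.33) at 72 h. KLK2 had 13.0, 13.0, 14.3, 35.4 and 12.4, with 0.14 (−0.33 to 0.64) at 4 h, 1.45 (0.97 to 1.95) at 16 h and −0.069 (−0.69 to 0.56) at 72 h. At 16 h, 15 of 11351 promoters (0.132%) had at least doubled and 0.00881% had halved, and KLK3 and KLK2 were the third and the fourth, after SNAI2 and TMPRSS2. SNAI2 is named after its values were seen. KLK4 rose by 0.82 (0.65 to 0.999), with 50 promoters above it, and KLK15 was at 0.40 (0.13 to 0.68), with 1190 above it. At 4 h KLK15 and KLK4 were at 0.46 (0.23 to 0.71) and 0.39 (0.23 to 0.56), with 67.3 and 137.5 in contact. Scaled to equal totals KLK15 at 16 h was at 0.27, with an interval from −0.00038 to 0.54. The median promoter rose by 0.12.

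The other time points gave no promoter call among the members. At 30 m KLK15 went from 65.2 to 105.1 in H3K27ac, a log2 change of 0.69 (0.46 to 0.92) when the median promoter was at 0.29 and 1233 of 10348 were above it. KLK3 and KLK2 were then below that median. None of the 4 members with enough read pairs had doubled or halved, against 1.83% and 0.416% of promoters. In H3K4me3 the same held for 3 members at 30 m, against 0% and 0.0939%, for all 5 at 4 h, against 2.5% and 0.275%, and for 3 at 72 h, against 0.0369% and 0.157%. In H3K27ac at 4 h and 16 h no member had halved either, against 0% and 0.679%.

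The H3K4me3 contact of KLK1 was 9.87 at 0 m and 4.44, 5.78, 6.19 and 5.77 afterwards, all below vehicle, with a log2 change of −0.77 (−1.37 to −0.15) at 4 h and −0.67 (−1.41 to 0.060) at 16 h. In H3K27ac KLK1 had 6.17, 7.38, 10.3, 4.67 and 2.89, on 11 to 48 read pairs per time point. Against vehicle its changes at 4 h, 0.73 (−0.035 to 1.55), and at 72 h, −1.09 (−2.29 to 0.025), had intervals that held 0. From 4 h to 16 h it changed by −1.13 (−1.93 to −0.38). In H3K4me3 the change of KLK3 exceeded that of KLK1 by 2.25 (1.48 to 3.03) at 16 h, that of KLK15 by 1.18 (0.81 to 1.54) and that of KLK4 by 0.76 (0.46 to 1.06). In the differences from KLK15 and KLK4 the loop shared with KLK3 stood on both sides, which their intervals do not take into account. KLK3 and KLK2 were not distinguishable in H3K4me3 at 16 h, with a difference of 0.13 (−0.42 to 0.67).

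The KLK3 loops did not move as 1 block in H3K27ac. From 0 m to 72 h, its loop to ARBS2 had a contact of 30.6, 50.2, 89.7, 96.0 and 32.9. The loop to ARBS1 had 24.98, 23.6, 46.6, 26.8 and 12.4, that to ARBS3 19.7, 22.0, 43.4, 25.5 and 8.16, and that to ARBS5 10.9, 8.10, 19.7, 12.7 and 3.42. The loop to the 3′ part of KLK3 had 31.7, 27.9, 57.3, 29.7 and 13.4. All 5 rose to 4 h, and only the ARBS2 loop stayed high at 16 h. From 4 h to 16 h it changed by 0.097 (−0.098 to 0.29), whereas the other 4 changed by −0.63 to −0.95, each with an interval below 0. The ARBS2 loop exceeded the sum of the other KLK3 loops by 0.90 (0.65 to 1.15) in that step. Without the ARBS2 loop the 16 h change of the KLK3 promoter was 0.057 (−0.13 to 0.25), so that the rise left at 16 h lay in this loop. At 4 h the change without it was 0.86 (0.69 to 1.04).

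KLK2 showed a like contrast between its 2 guide-site loops. That to ARBS3 had 48.5, 51.3, 95.9, 93.4 and 38.7 over the 5 time points and that to ARBS5 15.6, 22.0, 38.2, 23.6 and 10.8. From 4 h to 16 h they changed by −0.038 (−0.23 to 0.15) and −0.70 (−1.05 to −0.35), a difference of 0.66 (0.26 to 1.07). Beside these values stands a series-wide pattern. Of 1399 other 5 kb loops with a mean H3K27ac contact of at least 32, the median rose by 0.17 at 4 h, 1.09 at 16 h and 0.79 at 72 h. None of them rose as much as KLK3 with ARBS2 at 4 h, which changed by 1.55, and 7 (0.5%) rose more than KLK2 with ARBS3, which changed by 0.98. At 16 h, in contrast, 224 (16.0%) and 844 (60.3%) rose more, and the part of length and strength in the persistence of these 2 loops was not tested. The loop within KLK3, of the same class, went the other way. It was at −0.095 at 16 h, where 97.7% of the class was higher, and at −1.24 at 72 h, where all 1399 were higher.

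**Figure D4:**
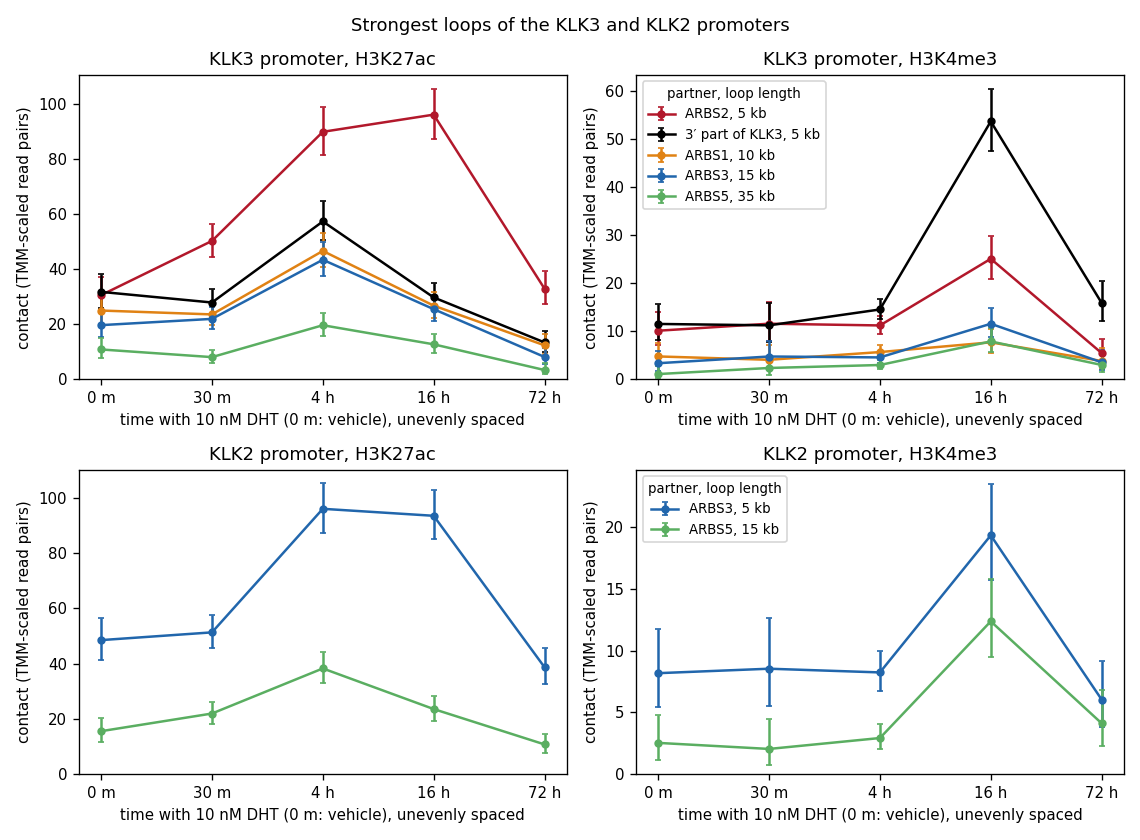
Contact of the strongest loops of KLK3 (top) and of KLK2 (bottom) by time with DHT in H3K27ac (left) and H3K4me3 (right), with 95% counting intervals. In H3K27ac the 5 kb loops to ARBS2 and ARBS3 stay high at 16 h while the others fall, and in H3K4me3 all are highest at 16 h.

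The ARBS3 site is joined to both genes, and its contacts were compared directly. From 0 m to 16 h the H3K27ac contact of ARBS3 changed by 0.95 (0.68 to 1.21) with KLK2 and by 0.37 (−0.071 to 0.83) with KLK3, a log2 difference of 0.57 (0.045 to 1.10) in which the scaling cancels. At 4 h the difference was −0.15 (−0.65 to 0.33), and at 72 h 0.95 (0.22 to 1.69), when contact with KLK3 had fallen to 8.16 and that with KLK2 was 38.7. In H3K4me3 at 16 h the difference was −0.54 (−1.75 to 0.61). The lengths of these loops differ, at 15 kb and 5 kb, and so do their mean contacts. At 16 h the summed H3K27ac contact of all 5 kb loops with a mean of at least 32 changed by 1.12. That of loops of 10 to 20 kb with a mean of 16 to 32 changed by 0.55. The part of length and strength in the ARBS3 difference was not tested. Changes also differed between genes at ARBS1, which is 10 kb by bins from both KLK15 and KLK3. Its H3K27ac contact with KLK15 was 15.9, 30.1, 29.5, 38.6 and 19.7, and the change to 16 h exceeded that with KLK3 by 1.19 (0.57 to 1.81). ARBS1 contact with KLK3 was thus higher than with KLK15 at 0 m and 4 h, and lower at 30 m, 16 h and 72 h.

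In H3K4me3, 8 of the 13 KLK3 loops and 2 of the 7 KLK2 loops had at least 20 read pairs over the 0 m and 16 h tables, and 6 and 2 of them had at least doubled. The loop to the 3′ part of KLK3 had 11.6, 11.3, 14.6, 53.7 and 15.9 from 0 m to 72 h, a log2 change of 2.22 (1.74 to 2.73) at 16 h. None of 2538 other 5 kb loops with a mean H3K4me3 contact of 16 to 32 rose as much, and their median rose by 0.24. It exceeded the ARBS2 loop, with 10.2 at 0 m and 25.1 at 16 h, by 0.91 (0.15 to 1.66). The order of these 2 loops was therefore opposite in the marks, since in H3K27ac the ARBS2 loop led by 1.75 (1.25 to 2.24). The loop of KLK3 with the KLK4 promoter went from 4.79 to 16.6, a change of 1.79 (1.03 to 2.64), while in H3K27ac it had 5.88 and 4.67. KLK2 with ARBS5 went from 2.54 to 12.4 and with ARBS3 from 8.18 to 19.3, changes of 2.29 (1.27 to 3.48) and 1.24 (0.63 to 1.89). Of 5491 other loops of 10 to 20 kb with a mean contact of 4 to 8, 1 rose more than KLK2 with ARBS5 and 4 more than KLK3 with ARBS3, which went from 3.38 to 11.6. Of 28 member loops with at least 20 read pairs over the 0 m and 16 h tables, 12 had at least doubled, against 6.5% of all loops with as many, and 6 of these 12 were KLK3 loops, 2 KLK2 loops, 4 KLK4 loops and 2 KLK15 loops, where a loop between promoters counts for both. None had halved, against 2.21%.

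The corresponding H3K27ac counts were 5 of 28 loops doubled at 4 h, against 7.02%, and 4 of 26 at 16 h, against 18.3%, with none halved, against 3.02% and 5.9%. At 72 h 6 of 24 had halved, all of them KLK3 loops, against 6.61%, and 1 of these was the loop shared with KLK4. None had doubled, against 15.4%. The median log2 change of these 24 loops was −0.52, against 0.22 over all loops. At 30 m 1 of 27 had doubled and none halved, against 10.7% and 6.02%. In H3K4me3 none of 21 had doubled and 1 had halved at 30 m, against 3.15% and 3.79%. At 4 h 2 of 37 had doubled and none halved, against 15.2% and 3.36%, and at 72 h none of 23 had doubled and 1 had halved, against 2.4% and 5.86%. The remaining member loops had too few read pairs to be counted. For KLK15 the loops past the fold at 16 h in H3K27ac were those to ARBS1, ARBS3 and ARBS5, with changes of 1.28 (0.84 to 1.75), 1.07 (0.35 to 1.84) and 1.07 (0.31 to 1.88). Equal totals shift this contrast by −0.25, which takes the loops to ARBS3 and ARBS5 under 2-fold. KLK4, whose promoter is 41.8 kb from ARBS3 and 21.5 kb from ARBS5, had 8.82 at 0 m and 17.6 at 16 h with ARBS5, a change of 0.999 (0.38 to 1.65).

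The 13 loops to guide sites and the 60 other loops of the members were also summed, a division made after their values were seen. In H3K27ac the guide-site loops changed by 1.05 (0.93 to 1.18) at 4 h and 0.91 (0.78 to 1.03) at 16 h, and the others by 0.70 (0.53 to 0.86) and 0.036 (−0.14 to 0.22). KLK2 had the opposite order, with 1.07 and 1.54 at 4 h and 0.87 and 1.21 at 16 h, its other loops having 5 read pairs at 0 m. KLK4 had 0.60 and 0.61 at 4 h, and the remaining cases had the order of the sums. In H3K4me3 both groups rose at 16 h, by 1.16 (0.95 to 1.39) and 0.88 (0.73 to 1.03). By gene the H3K4me3 order varied, with 1.43 for the guide-site loops and 1.67 for the others at KLK3, 0.18 and 0.46 at KLK15, 1.56 and 0.70 at KLK2, and 1.09 and 0.75 at KLK4, and for each of these 4 genes the interval of the difference held 0. The guide-site loops span 5 to 65 kb and the others 5 to 980 kb, and the part of length in this difference was not tested.

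The rest of the kallikrein family, KLK5 to KLK14, had little contact. These 10 promoters had 20 loops in all, 4 of them had none, and their summed H3K27ac contact was 14.7 at 0 m, 16.2 at 4 h and 10.2 at 16 h. None reached 100 read pairs over a pair of H3K27ac tables, so that none could be counted as changed or not. The change of the 5 members exceeded that of these loops, with those shared between the groups left out, by 0.72 (0.15 to 1.29) at 4 h and 1.17 (0.53 to 1.80) at 16 h in H3K27ac, and by 1.17 (0.65 to 1.69) at 16 h in H3K4me3. Of 14 other androgen-responsive genes, 12 had enough read pairs. None of the 12 doubled in H3K27ac at 4 h, where their median was 0.20 and their highest 0.61, and 2 did in H3K4me3 at 16 h, where their median was 0.61. These 2 were TMPRSS2, a membrane serine protease gene, with 1.61 and SLC45A3, which encodes prostein, with 1.15. At 3 other contrasts 1 of the 12 had doubled and no member with enough read pairs had. They were H3K27ac at 16 h, with a list median of 0.48, H3K27ac at 72 h, with 0.13, and H3K4me3 at 4 h, with 0.60. The member medians there were 0.64, −0.35 and 0.38.

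The time courses of KLK3 and KLK2 were also set beside those of the 111 other promoters with at least 500 read pairs in each table, a minimum that KLK3, KLK2 and most promoters, TMPRSS2 among them, did not reach. Over the 8 log2 changes from 0 m in both marks, the nearest of these 111 were TIGD6 and HMGXB3, which share the same loops on chromosome 5, and AMD1 on chromosome 6. Their root mean square differences from KLK3 were 0.632 and 0.641, against a median of 0.818, and from KLK2 0.536 and 0.602, against 0.751. The shared TIGD6 and HMGXB3 loops changed by 0.31 at 4 h in H3K27ac and by 0.30 at 16 h in H3K4me3, against 1.04 and 1.58 at KLK3.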

How the data were processed

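HiChIP of H3K27ac and H3K4me3 in LNCaP cells was sequenced by the authors, who, per the labels and methods, trimmed reads with Trim Galore 0.5.0, aligned them to hg19 with HiC-Pro 3.1.0, called loops with FitHiChIP on the merged time points of a mark at 5 kb resolution, and read contacts with Cooler. The 10 deposited tables, 1 per mark and time point, hold contact signal that the authors scaled by TMM among the 5 time points of a mark. Dividing each table by its smallest step gave whole read pairs for 100% of values. The methods do not say whether both H3K27ac replicates entered a table. A count test (edgeR, DESeq2) was not run because each mark and time point has 1 value.

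Contacts were summed over the loops of a promoter. Intervals at 95% are exact Poisson for levels, exact binomial for shares, and exact conditional for ratios and for differences of log2 changes. A loop or promoter counted as changed at 2-fold, with at least 20 or 100 read pairs over the 2 tables. Starts came from Gencode lifted to GRCh37. Loops named are the 3 strongest of each member and mark, those between members and those to guide sites, and some KLK3 and KLK4 loops over 100 kb were named after their values were seen. The members, gene lists and tests were chosen with earlier results of these data known. The intervals and the fold calls of loops were tried on simulated counts that held counting error only. The planted changes were larger than 2-fold, and promoter calls were not tried. Python 3.11.15, numpy 2.4.6, pandas 2.3.3, scipy 1.17.1, Biopython and pysam were used. Alternatives varied the scaling, overlap, loop length, strongest loop, loop set and start site.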

Additional observations from a re-analysis of the deposited data

How the results depend on the processing

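No paired analysis was possible because each mark and time point has 1 deposited value, and no replicate could be left out. For the 16 h changes of the 5 promoters, equal totals per library lowered H3K27ac by 0.25 and H3K4me3 by 0.14 on the log2 scale, also for the median of all promoters. The values then were 0.33 for KLK3, 0.63 for KLK2, 0.46 for KLK15 and 0.087 (−0.13 to 0.31) for KLK4 in H3K27ac, and 0.27 (−0.00038 to 0.54) for KLK15 in H3K4me3, so that both these intervals reached 0, while KLK1 in H3K4me3 gave −0.81 (−1.55 to −0.076), below 0. With loops of at least 20 kb alone, H3K27ac contact of KLK3 turned to −0.042 (−0.39 to 0.31), KLK15 gave 0.47, and KLK2, with 5 and 16 read pairs, gave 1.21 (−0.31 to 3.01). In H3K4me3 KLK2, with 8 and 19 read pairs, gave 0.70 (−0.56 to 2.10). Both KLK2 estimates thus stayed above 0, with intervals that held 0. Without the strongest loop, H3K27ac gave 0.057 for KLK3 and 0.45 for KLK15, and H3K4me3 gave 1.31 for KLK3, and KLK4 gave 0.22 (−0.016 to 0.46) in H3K27ac, an interval that reached 0. The H3K27ac loop set alone, which for KLK3 is the ARBS2 loop, gave 1.65. The starts of all protein-coding KLK2 transcripts gave 0.61 in H3K27ac. Of 81 alternative values for 21 results, 65 stayed within the counting interval of the reported value, 15 moved beyond it and 1 reversed. For KLK2 minus KLK3 at ARBS3, the loop set of H3K27ac holds no KLK3 loop and gave no value, and for KLK1 the H3K4me3 set holds no loop. For H3K27ac at 4 h and 72 h, alternatives chosen after seeing the data kept every direction. At 72 h the KLK2 interval reached 0 without its strongest loop, at −0.40 (−0.98 to 0.17), and those of KLK15, −0.28 (−0.55 to −0.0069), and KLK1, −1.26 (−2.46 to −0.15), fell below 0 with equal totals. Equal totals gave 0.97 for KLK3, which is then under 2-fold, and 1.01 for KLK2 at 4 h. Single loops with few read pairs limit the precision.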
